A study of Mus musculus with 12 samples.

Results

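Transcripts of 10 genes of the Eph receptor and ephrin family were followed through differentiation of mouse embryonic stem cells towards caudal epiblast. The genes were taken by name: the EphA receptors Epha1, Epha2, Epha4 and Epha7, the EphB receptors Ephb2 and Ephb3, the ephrin-A ligands Efna1 and Efna5, and the ephrin-B ligands Efnb1 and Efnb2. These are 10 of the 24736 genes in the expression table, and all 10 were among the 14196 with enough counts to be tested.

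Eph proteins are receptor tyrosine kinases whose ligands, the ephrins, are themselves held on the membrane of a neighbouring cell. Ephrin-A ligands are anchored by a lipid tail and ephrin-B ligands span the membrane. Each class binds mainly the receptors of its own letter, with exceptions such as EphA4, which also binds ephrin-B ligands. Contact between a receptor cell and a ligand cell signals into both cells, usually ends in repulsion or loosened adhesion, and helps to keep cell groups apart and to form boundaries at gastrulation and in the segmenting mesoderm.

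RNA was sequenced from 12 cultures at 72 h, in 4 groups of 3 that are described as independent biological replicates. All groups were grown in bFGF at 10 ng/ml with LGK974, an inhibitor of WNT secretion, at 5 µM. The EpiLC (epiblast-like cell) and CEpiLC (caudal epiblast-like cell) groups were wild type, namely the parental XY HM1 TetON line, and received no doxycycline by their labels. Both SOX2 groups, SOX2-OFF and SOX2-ON, derive from a single edited line, picked as a clone, SOX2 TetON, labelled Sox2-/-, with a doxycycline-driven Sox2 transgene at the Hprt locus. Doxycycline, 1 µg/ml in the stem cell medium, was withdrawn during differentiation in SOX2-OFF and maintained in SOX2-ON. CHIR99021, an agonist of WNT signalling, was added from day 2 to day 3 in CEpiLC, SOX2-OFF and SOX2-ON but not in EpiLC. Line and genotype therefore cannot be told apart in a comparison of SOX2 TetON with wild-type cells, nor can SOX2 and doxycycline between SOX2-ON and SOX2-OFF. A SOX2 TetON culture without CHIR99021 was not analysed here.

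Sox2 was measured in TPM, a share of all transcripts that is corrected for transcript length. It averaged 137 ± 29.7 TPM (SD, n = 3) in EpiLC against 10.4 ± 3.01 in CEpiLC, and 187 ± 24.03 with doxycycline (SOX2-ON) against 16.5 ± 4.48 without (SOX2-OFF). All 6 listed epiblast genes averaged above 1 TPM in each group. Their sum was 1565 to 1686 TPM for EpiLC libraries and 741 to 1036 for CEpiLC. It was 850 to 993 for SOX2-OFF and 1334 to 1524 for SOX2-ON. For 6 caudal and streak genes the sum was 1.45 to 2.44 TPM for EpiLC libraries and 1374 to 1564 for CEpiLC. For SOX2-OFF it was 965 to 979 and for SOX2-ON 237 to 284. That sum does not tell streak from caudal genes, and the paper reports T induced but Cdx2 not upregulated in SOX2-OFF cells. Genes of other cells were also read. The 8 extraembryonic endoderm genes summed to 1.23 to 1.91 TPM for EpiLC, 3.07 to 14.3 for CEpiLC, 132 to 147 for SOX2-OFF and 42.95 to 128 for SOX2-ON. In SOX2-OFF 6 of the 8 were above 1 TPM but Afp and Apoa1 near 0. The paper reports a rise of anterior mesoderm and endoderm genes in SOX2-OFF cells. Whether the listed genes mark separate cells here was not tested. The stem cells had been kept on fibroblast feeders, and 7 fibroblast genes summed to between 18.2 and 83.0 TPM over all libraries, the 6 endothelial genes to between 2.95 and 9.07, and the 5 neural genes to between 137 and 169 in EpiLC and between 29.4 and 85.0 elsewhere. The part of such cells in the results below was not tested, and in these bulk samples fewer cells of a type and less RNA per cell cannot be told apart. Library totals ran from 10408252 counts in CEpiLC replicate 3 to 27337740 in CEpiLC replicate 1, and the lowest count of any of the 10 genes in any library was 23.

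Promoter sequence is shown for 4 of the 5 genes whose change with CHIR99021 was called and over 1 on the log2 scale, 3 of them upward and Efna5 downward. The fifth, Epha4, lost its call without a single library. The stretches are the 250 bases before the RefSeq start site in GRCm38.p6 (mm10), written 5′ to 3′ on the strand of the gene, and capitals mark a match to the TCF/LEF motif through which β-catenin reaches DNA. Epha2 lies at chr4:141300971-141301220 (+), Efnb1 at chrX:99135811-99136060 (+), Efna1 at chr3:89280952-89281201 (-) and Efna5 at chr17:62881318-62881567 (-).
Epha2: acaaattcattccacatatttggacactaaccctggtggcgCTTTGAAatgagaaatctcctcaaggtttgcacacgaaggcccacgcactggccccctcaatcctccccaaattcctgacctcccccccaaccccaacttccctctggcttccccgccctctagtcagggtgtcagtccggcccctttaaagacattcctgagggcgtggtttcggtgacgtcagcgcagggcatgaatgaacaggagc
Efnb1: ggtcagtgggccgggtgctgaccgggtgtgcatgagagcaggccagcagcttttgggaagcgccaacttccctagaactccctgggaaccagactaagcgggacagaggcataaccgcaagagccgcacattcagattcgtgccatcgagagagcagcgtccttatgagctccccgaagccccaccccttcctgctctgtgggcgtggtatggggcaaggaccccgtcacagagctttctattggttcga
Efna1: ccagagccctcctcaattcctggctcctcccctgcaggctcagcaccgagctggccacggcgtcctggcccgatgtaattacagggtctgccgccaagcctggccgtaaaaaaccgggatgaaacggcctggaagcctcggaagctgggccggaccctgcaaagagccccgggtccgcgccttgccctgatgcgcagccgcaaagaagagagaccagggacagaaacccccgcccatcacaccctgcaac
Efna5: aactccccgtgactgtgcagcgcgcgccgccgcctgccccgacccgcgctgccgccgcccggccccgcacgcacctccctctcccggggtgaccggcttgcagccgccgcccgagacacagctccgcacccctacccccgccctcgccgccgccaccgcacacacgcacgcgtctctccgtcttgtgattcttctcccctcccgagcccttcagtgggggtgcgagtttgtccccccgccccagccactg
The motif was searched on both strands as CTTTGAT or CTTTGAA, and among the 10 genes only the Epha2 stretch held it, as CTTTGAA on the gene's own strand with its first base 209 bases before the start. Of 27025 mouse promoter stretches of this length, 7.69% held it. A SOX motif, CATTGT or CTTTGT on either strand, was in 0 of the 10 and in 25.4% of all stretches. The GC content of the 10 stretches ran from 54.4% for Epha1 to 74.8% for Efna5, against a median of 52% over all stretches. Efna1 and Epha7 each have 2 start sites listed, and the outermost of those listed was used. The searched stretches of Epha1, Epha4, Epha7 and Ephb3 run partly into the RefSeq span of the gene. That of Ephb2 lies wholly inside it. For these genes the search and the GC content thus do not cover upstream bases alone. The bases just after the start used were in a GENCODE transcript of the gene for 9 of the 10 genes but not for Efnb1, so that the Efnb1 stretch shown rests on the RefSeq start alone. A match is a description of these letters only.

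**Figure D1:**
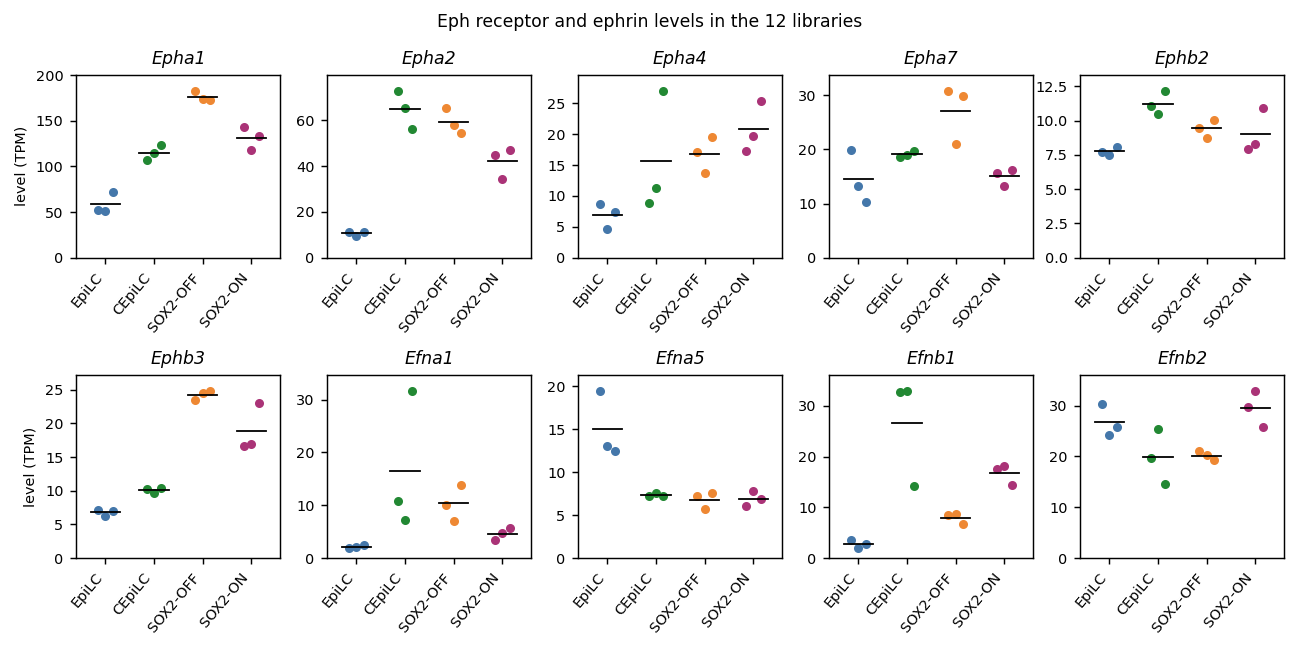
Level of each of the 10 genes in TPM (vertical axes, each from 0) in the 3 libraries of EpiLC, CEpiLC, SOX2-OFF and SOX2-ON. Points are libraries and horizontal bars group means. Epha1 reaches 183 TPM, and Efna1 has 1 CEpiLC library at 31.5 TPM, far from the others of its group. EpiLC is apart from all CHIR99021 groups for Epha1, Epha2, Epha4, Ephb3, Efna1, Efnb1 and, in the other direction, Efna5.

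The first comparison asks what CHIR99021 on the last day did to the family in wild-type cells. Compared with EpiLC, 7 of the 10 genes were higher and 2 lower in CEpiLC by edgeR's quasi-likelihood test at an adjusted p of 0.05 or less. Of all genes tested, 42.2% were called, 22.1% higher and 20.1% lower. The 3 libraries of the groups did not overlap for 8 of the 10, against 52.3% of all genes. For 5 the change was called and exceeded 1 on the log2 scale, in either direction, against 12.2% of all genes. The median absolute log2 fold change was 1.01 for the 10 genes and 0.26 for all genes tested. The ephrin-B ligand Efnb1 and the ephrin-A ligand Efna1 had the widest changes among the 10, followed by the receptor Epha2.

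Among EphA receptors, Epha2, a receptor known from epithelia and from the primitive streak of the embryo, went from a minor to a major transcript. It stood at 11.3, 9.62 and 11.4 TPM in EpiLC and at 72.7, 65.3 and 56.2 TPM in CEpiLC. Every CEpiLC library was several-fold above every EpiLC library. The log2 fold change was 2.60 (SE 0.13), with an edgeR adjusted p of 1.12e-08.

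Epha1, the receptor with the highest transcript level of the 10 in every group, was at 52.1, 51.6 and 72.0 TPM in EpiLC and at 108, 115 and 123 TPM in CEpiLC. The groups were apart, and the log2 fold change was 0.99 (SE 0.11, edgeR adjusted p = 1.70e-05). Epha4 encodes a receptor that binds ligands of both classes and marks segment borders in the hindbrain and somites. Its transcript was at 8.70, 4.69 and 7.48 TPM in EpiLC and at 8.84, 11.4 and 26.97 TPM in CEpiLC. The lowest CEpiLC library lay just above the highest EpiLC library, and replicate 3 stood well above the other two. A change of 1.15 on the log2 scale (SE 0.36, edgeR adjusted p = 0.0199) fell to 0.53 with an adjusted p of 0.0923 without CEpiLC replicate 3, and to 0.92 with an adjusted p of 0.0862 without EpiLC replicate 2. The Epha4 call was also lost with limma-voom (adjusted p = 0.0546) and in a fit of the 6 libraries alone (edgeR adjusted p = 0.0503). Epha7, a receptor with roles in neural tube closure, was at 19.9, 13.2 and 10.4 TPM in EpiLC and at 18.6, 19 and 19.7 TPM in CEpiLC, so the groups overlapped. Its difference of 0.38 on the log2 scale missed the threshold (edgeR adjusted p = 0.141), with a 95% interval from -0.076 to 0.84, and without EpiLC replicate 1 it was 0.69 with an adjusted p of 0.00541.

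Both EphB receptors, which are known WNT target genes in the intestinal crypt, rose by less. Ephb2 was at 7.73, 7.52 and 8.06 TPM in EpiLC and at 11.1, 10.5 and 12.2 TPM in CEpiLC. Ephb3 was at 7.10, 6.32 and 7.02 TPM in EpiLC and at 10.2, 9.66 and 10.4 TPM in CEpiLC. Neither gene's groups overlapped, and the spread among libraries was small. The log2 fold changes were 0.54 for Ephb2 (SE 0.11, edgeR adjusted p = 0.00130) and 0.57 for Ephb3 (SE 0.12, edgeR adjusted p = 0.00178).

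The ephrin-A ligands went opposite ways. Efna1, a ligand that binds EphA2 with high affinity, was at 1.81, 2.03 and 2.49 TPM in EpiLC and at 10.7, 7.15 and 31.5 TPM in CEpiLC. All CEpiLC libraries were above EpiLC, but replicate 3 was well above the other two. Efna1 rose by 2.94 on the log2 scale (SE 0.51, edgeR adjusted p = 0.000513), and by 2.11 with an adjusted p of 0.000201 without CEpiLC replicate 3. Efna5, the ligand known for guiding retinal axons, was at 19.4, 13.1 and 12.5 TPM in EpiLC and at 7.22, 7.61 and 7.17 TPM in CEpiLC. Here the groups were apart in the other direction, at -1.03 on the log2 scale (SE 0.16, edgeR adjusted p = 0.000269).

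Of the ephrin-B ligands, the X-linked Efnb1, whose loss in people causes craniofrontonasal syndrome, was at 3.58, 2.01 and 2.71 TPM in EpiLC and at 32.7, 32.9 and 14.1 TPM in CEpiLC. Even the lowest CEpiLC library, replicate 3, was well above EpiLC. Its change of 3.27 on the log2 scale (SE 0.30, edgeR adjusted p = 2.21e-06) was the widest of the 10. Efnb2, a ligand of arterial endothelium and of the posterior part of somites, was at 30.4, 24.3 and 25.7 TPM in EpiLC and at 19.7, 25.4 and 14.6 TPM in CEpiLC. Its libraries overlapped, and a change of -0.42 on the log2 scale (SE 0.15, edgeR adjusted p = 0.0439) passed narrowly. Leaving out EpiLC replicate 1 or 3 or CEpiLC replicate 1 or 3 gave adjusted p of 0.167, 0.0630, 0.0972 and 0.140 in turn, and a fit of the 6 libraries alone 0.0867.

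**Figure D2:**
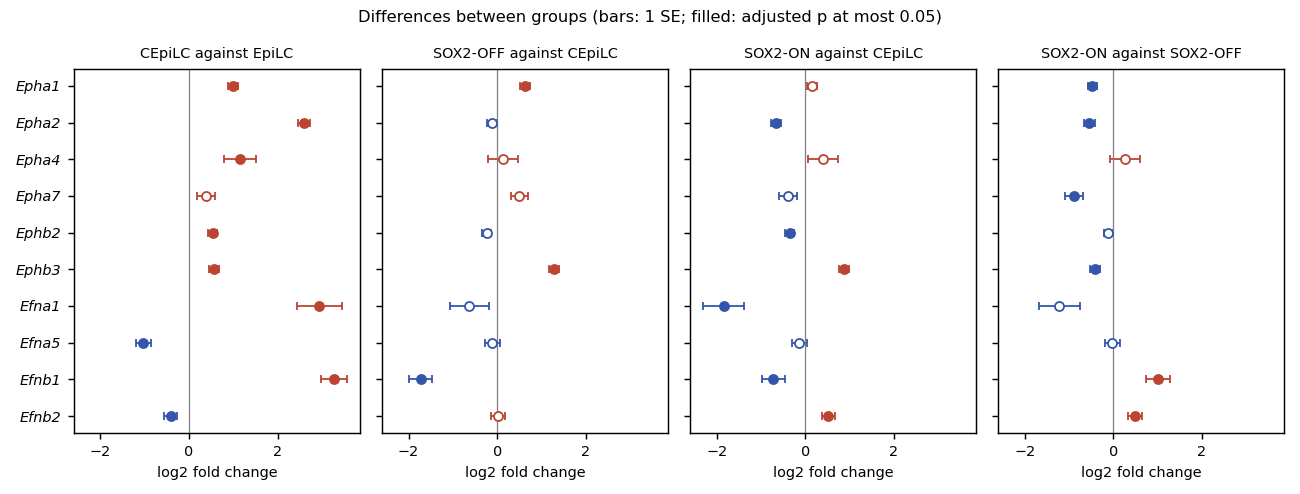
Log2 fold change of each of the 10 genes (horizontal axes) in 4 of the comparisons, with bars of 1 SE from edgeR, red for higher and blue for lower, and points filled at an adjusted p of 0.05 or less. In CEpiLC against EpiLC the genes run from -1.03 for Efna5 to 3.27 for Efnb1.

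SOX2-OFF cells, differentiated without doxycycline, were compared with wild-type CEpiLC. Sox2 RNA was low in both at harvest (16.5 and 10.4 TPM), and its level when CHIR99021 was added was not measured. In SOX2 TetON cells this value does not tell transcripts of the transgene from those of the edited endogenous gene. It is therefore not a measure of functional SOX2, and protein was not measured here. Of the 10 genes, 2 were higher and 1 lower by the edgeR test. Of all genes 48.5% were called, 23.6% higher and 24.9% lower, so the share of the 10 was under that of all genes. With the replicate number as a block, 5 were called. The median absolute log2 fold change was 0.37 for the 10 genes and 0.33 for all. Ephb3 rose from the CEpiLC levels of about 10 TPM to 23.5, 24.5 and 24.8 TPM in SOX2-OFF. These are the highest Ephb3 levels of the 4 groups, and they are well clear of CEpiLC. The log2 fold change was 1.28 (SE 0.11, edgeR adjusted p = 1.56e-06).

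Efnb1 was lower in SOX2-OFF, at 8.49, 8.76 and 6.62 TPM. All 3 were under the lowest CEpiLC library yet above all EpiLC libraries. The log2 fold change was -1.73 against CEpiLC (SE 0.27, edgeR adjusted p = 0.000150) and 1.54 against EpiLC (edgeR adjusted p = 0.000680). Without CEpiLC replicate 3, the library with the lowest Efnb1 of its group, the difference from CEpiLC was -2.01 (edgeR adjusted p = 1.95e-06).

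Epha1 read 183, 174 and 172 TPM in SOX2-OFF, above all CEpiLC libraries, at 0.63 on the log2 scale (SE 0.11, edgeR adjusted p = 0.000418). Epha1 lies on chromosome 6, where genes as a whole read higher in the SOX2 TetON line: the median of 377 well-expressed genes of that chromosome was 0.58 higher in SOX2 TetON than in wild-type libraries on the log2 scale. Efnb2 lies on chromosome 8, where 471 genes had a median 0.61 higher. When each library's median for each chromosome was removed, Epha1 differed by 0.059 between SOX2-OFF and CEpiLC (edgeR adjusted p = 0.698). Efnb2, at 21.1, 20.2 and 19.3 TPM in SOX2-OFF and overlapping CEpiLC, moved from 0.028 (edgeR adjusted p = 0.895) to -0.57 (edgeR adjusted p = 0.0133) by the same step. None of the other 8 genes lies on chromosome 6, 8 or 11, the 3 chromosomes with such a shift.

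Epha7 reached 30.7, 21.0 and 29.8 TPM in SOX2-OFF, all above CEpiLC. Its log2 fold change of 0.50 stood at an edgeR adjusted p of 0.0502, and with the replicate block it was 0.48 with an adjusted p of 0.0293. DESeq2 gave an adjusted p of 0.0234. Ephb2 was at 9.49, 8.76 and 10.0 TPM, all below CEpiLC, with a log2 fold change of -0.24 (edgeR adjusted p = 0.0788) and an adjusted p of 0.0162 with the block. For both genes the libraries of the groups were apart while the call depended on the fit.

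Epha2, at 65.3, 57.9 and 54.3 TPM in SOX2-OFF, overlapped CEpiLC. The difference was -0.12 on the log2 scale with a 95% interval from -0.39 to 0.15 (edgeR adjusted p = 0.429). Efna5 overlapped too, at 7.17, 5.67 and 7.54 TPM, and differed by -0.11 with an interval from -0.50 to 0.29 (edgeR adjusted p = 0.636). Neither interval reaches the size of the gene's difference between CEpiLC and EpiLC. Epha4, at 17.1, 13.7 and 19.6 TPM, and Efna1, at 10.1, 7.07 and 13.9 TPM, overlapped CEpiLC, and both differences depended on CEpiLC replicate 3. For Epha4 the log2 fold change was 0.13 (edgeR adjusted p = 0.770) with that library and 0.75 (edgeR adjusted p = 0.0171) without it. For Efna1 it was -0.62 (edgeR adjusted p = 0.261) with it and 0.21 (edgeR adjusted p = 0.575) without it.

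SOX2-ON cells, which had doxycycline throughout and 187 TPM of Sox2 at harvest, were compared with SOX2-OFF cells of the same line, so that the chromosome shifts cancel. By the edgeR test 2 of the 10 genes were higher and 4 lower, where 28.8% of all genes were called, 14.8% higher and 14.1% lower. The groups were apart for 7 of the 10, against 43.8% of all genes. The median absolute log2 fold change was 0.48 for the 10 and 0.21 for all. Among the 10, the 4 that were lower are receptors and the 2 that were higher are Efnb1 and Efnb2. Other family genes, described below, did not all follow. The receptors Epha5, Ephb1 and Epha8 were called higher, Epha8 by 0.83 (edgeR adjusted p = 0.0397). The receptor Ephb4 was called lower, and so was the ligand Efna3 (log2 fold change -1.19, edgeR adjusted p = 0.00145). Efnb3, also an ephrin-B ligand, was not called (-0.068, edgeR adjusted p = 0.777).

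Epha2 fell to 44.8, 34.5 and 46.9 TPM in SOX2-ON, all below SOX2-OFF, at -0.54 on the log2 scale (SE 0.12, edgeR adjusted p = 0.00401). Epha1 was at 143, 118 and 133 TPM, also all below SOX2-OFF, with -0.47 (SE 0.11, edgeR adjusted p = 0.00589). Epha7 was at 15.7, 13.2 and 16.1 TPM. These Epha7 values lie within the EpiLC range and clear of SOX2-OFF, at -0.89 on the log2 scale (SE 0.20, edgeR adjusted p = 0.00446). Ephb3 was at 16.7, 16.9 and 23.1 TPM, so that replicate 3 lay close under the SOX2-OFF libraries and the other two clearly lower. Its log2 fold change was -0.41 (SE 0.11, edgeR adjusted p = 0.0121), and adjusted p was 0.0572 without SOX2-ON replicate 1 and 0.0571 without SOX2-ON replicate 2.

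Efnb1 stood at 17.5, 18.2 and 14.5 TPM in SOX2-ON, each above all SOX2-OFF libraries. The log2 fold change was 1.01 (SE 0.27, edgeR adjusted p = 0.0129). Efnb2, at 29.8, 32.8 and 25.8 TPM, was likewise above SOX2-OFF in all 3 libraries, at 0.49 on the log2 scale (SE 0.16, edgeR adjusted p = 0.0297). That call was lost without any one of SOX2-OFF replicates 1, 2 and 3 or SOX2-ON replicates 1 and 2, where adjusted p ran from 0.0632 to 0.106.

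Efna1 was at 3.36, 4.71 and 5.65 TPM in SOX2-ON, under all SOX2-OFF libraries. The log2 fold change of -1.22 (SE 0.47) had an edgeR adjusted p of 0.0699, and DESeq2 gave an adjusted p of 0.0236. Epha4 at 17.3, 19.7 and 25.3 TPM, Ephb2 at 7.93, 8.30 and 10.9 TPM and Efna5 at 6.05, 7.77 and 6.82 TPM all overlapped SOX2-OFF. Their log2 fold changes were 0.26, -0.11 and -0.026, with edgeR adjusted p of 0.610, 0.469 and 0.929. Without SOX2-ON replicate 3, Ephb2 was -0.26 with an adjusted p of 0.0404. In this comparison the extraembryonic endoderm genes summed to 132 to 147 TPM without doxycycline and 42.95 to 128 with it, and their part in these differences was not tested.

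Against wild-type CEpiLC, with which SOX2-ON shares CHIR99021 but not the line, 2 of the 10 genes were higher and 4 lower by edgeR, where 56.5% of all genes were called, 27.9% higher and 28.6% lower. The comparison shares its CEpiLC libraries with the one of SOX2-OFF above. Epha2 was below all CEpiLC libraries (log2 fold change -0.66, SE 0.12, edgeR adjusted p = 0.000371), and so was Efna1 (-1.84, SE 0.464, edgeR adjusted p = 0.00429). For Efna1 the difference was -1.01 with an adjusted p of 0.0102 without CEpiLC replicate 3. Ephb3 was above all CEpiLC libraries (0.87, SE 0.11, edgeR adjusted p = 2.54e-05). Ephb2 overlapped CEpiLC yet was called lower (-0.35, SE 0.11, edgeR adjusted p = 0.0123), with adjusted p of 0.0591 and 0.0552 without SOX2-ON replicates 1 and 2.

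Efnb1 overlapped CEpiLC through replicate 3 of the latter, and its log2 fold change was -0.72 (SE 0.25, edgeR adjusted p = 0.0271). That call was lost without CEpiLC replicate 1 or 2 or SOX2-ON replicate 3, at adjusted p of 0.123, 0.107 and 0.0946, and in a fit of the 6 libraries alone, at 0.0573. Efnb2 was higher by 0.52 (SE 0.15, edgeR adjusted p = 0.0112), and with the chromosome shift removed the difference was -0.083 (edgeR adjusted p = 0.696). Epha1 differed by 0.15 (edgeR adjusted p = 0.254), and with the shift removed by -0.41 (edgeR adjusted p = 0.00771). Epha4, Epha7 and Efna5 were not called, at 0.39, -0.39 and -0.13 with edgeR adjusted p of 0.345, 0.109 and 0.531, and Epha4 reached 1.01 with an adjusted p of 0.00250 without CEpiLC replicate 3.

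**Figure D3:**
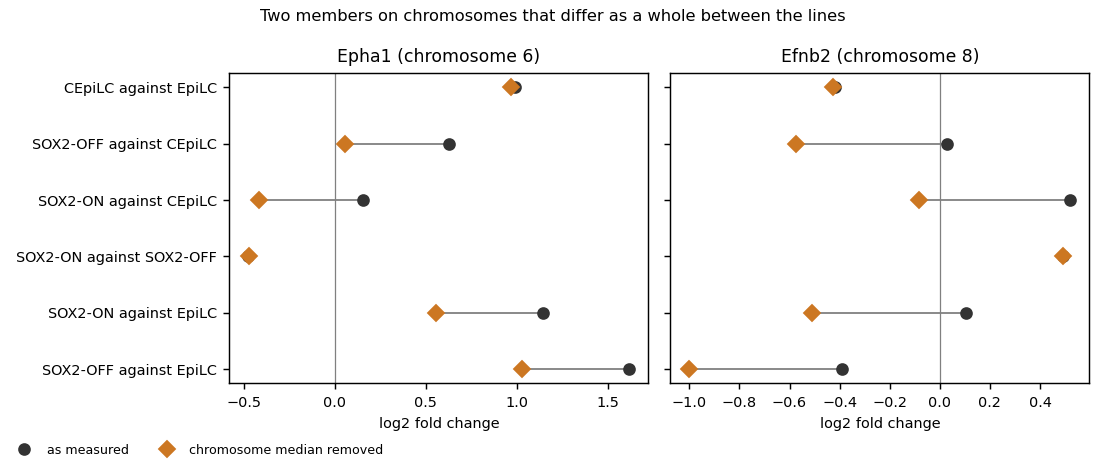
Log2 fold changes of Epha1 (chromosome 6) and Efnb2 (chromosome 8) in the 6 comparisons, as measured (circles) and after each library's median for the chromosome was removed (diamonds). The markers coincide in CEpiLC against EpiLC and in SOX2-ON against SOX2-OFF, and part by about 0.6 wherever SOX2 TetON is compared with wild type.

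Set against EpiLC, the group without CHIR99021, 8 of the 10 genes were higher and 2 lower in SOX2-OFF, where 62.1% of all genes were called, 31.5% higher and 30.6% lower. In SOX2-ON 5 were higher and 1 lower, where 59.8% of all genes were called, 30.7% higher and 29.1% lower. These comparisons share their EpiLC libraries with each other and with the first one. Side by side for CEpiLC, SOX2-OFF and SOX2-ON, the log2 fold change over EpiLC was 2.60, 2.48 and 1.94 for Epha2 and 0.57, 1.85 and 1.44 for Ephb3. It was 3.27, 1.54 and 2.55 for Efnb1 and 2.94, 2.32 and 1.10 for Efna1. Efna1 in SOX2-ON was above all EpiLC libraries but was not called by the edgeR fit of all libraries (edgeR adjusted p = 0.0975). It was called by DESeq2 (adjusted p = 0.0356), by the edgeR fit of the 6 compared libraries alone (adjusted p = 0.00410) and with the replicate block (adjusted p = 0.0278).

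Epha4 was 1.15, 1.28 and 1.54 above EpiLC on the same scale, all called. Efna5 was -1.03, -1.14 and -1.17, also all called, so that its lower level was common to the 3 CHIR99021 groups. Epha7 was 0.38, 0.88 and -0.011, of which the value for SOX2-OFF was called (edgeR adjusted p = 0.00170). Ephb2 was 0.54, 0.30 and 0.19, called in CEpiLC and in SOX2-OFF, and the latter call (edgeR adjusted p = 0.0268) was lost without EpiLC replicate 1 or 2 or SOX2-OFF replicate 1 or 3, at adjusted p of 0.0570, 0.0817, 0.0529 and 0.0938.

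With the chromosome shift removed, Epha1 was 0.97, 1.03 and 0.55 above EpiLC in CEpiLC, SOX2-OFF and SOX2-ON, where the values as measured were 0.99, 1.62 and 1.14. Efnb2 was then -0.43, -0.9996 and -0.51, where the values as measured were -0.42, -0.39 and 0.10. The SOX2-OFF value of Efnb2 as measured (edgeR adjusted p = 0.0428) was lost without any one of the 3 SOX2-OFF libraries or EpiLC replicate 1 or 3, with adjusted p from 0.0567 to 0.172. For Efnb2 the sign in SOX2-ON thus differed between the measured and the shift-removed value.

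In order of mean level, Ephb3 was highest in SOX2-OFF, then SOX2-ON, CEpiLC and EpiLC, with every neighbour in that order apart. Epha2 ran from CEpiLC through SOX2-OFF and SOX2-ON to EpiLC, and Efna1 took the same order, with CEpiLC and SOX2-OFF overlapping in both genes. Efnb1 ran from CEpiLC through SOX2-ON and SOX2-OFF to EpiLC, and the CEpiLC and SOX2-ON libraries overlapped. The ratio of the highest to the lowest group mean was 9.60 for Efnb1, 7.80 for Efna1 and 6.01 for Epha2, and the narrowest was 1.44 for Ephb2.

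Replicates were not equally close for all genes. The SD of Efna1 on the log2 CPM scale was set against that of the 10872 genes averaging at least 2 log2 CPM. It exceeded that of 99.8% of them among CEpiLC libraries and 99.0% among SOX2-OFF libraries. Efna1 itself was under 2 log2 CPM in every EpiLC and SOX2-ON library, so it was among the less expressed of these genes. Replicate 3 had the highest Efna1 in each of the 4 groups and the lowest Efnb1 in the 3 groups with CHIR99021. In CEpiLC the same library had the highest Epha4 and the lowest Efnb2. Msgn1 and Tbx6, genes of paraxial mesoderm that were chosen after their values were seen, read 64.5, 94.98 and 364 TPM and 10.9, 23.6 and 86.2 TPM in CEpiLC replicates 1 to 3. In SOX2-OFF they were at 95.9, 80.3 and 169 TPM and at 9.46, 10.3 and 18.9 TPM, with replicate 3 again the highest. Values of Msgn1 and Tbx6 in EpiLC and SOX2-ON are not given here, and the relation of these genes to the receptor and ligand levels was not tested.

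**Figure D4:**
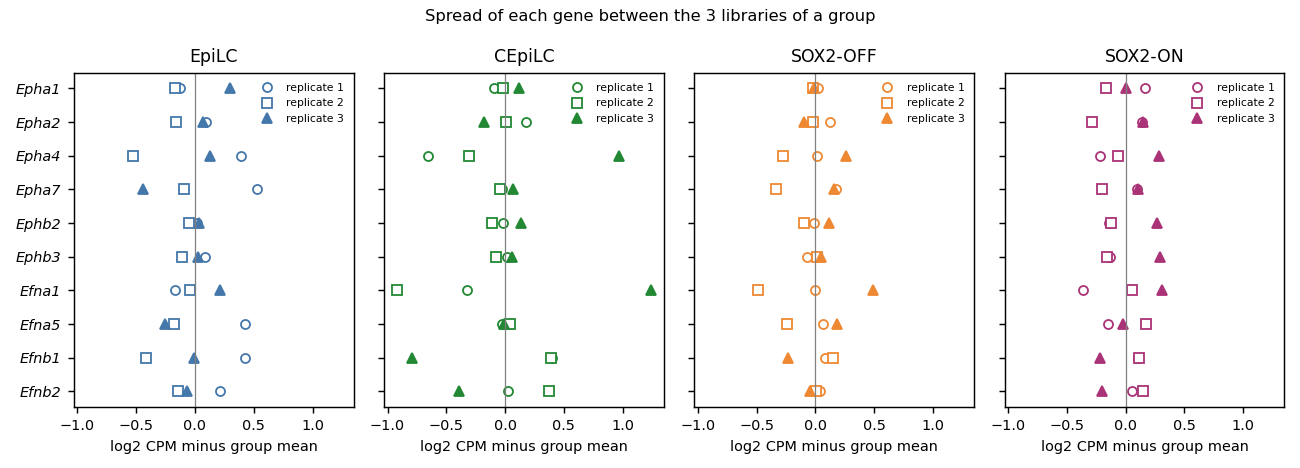
Deviation of each library from its group mean, on the log2 CPM scale (horizontal axes), for the 10 genes in the 4 groups, with circles, squares and filled triangles for replicates 1, 2 and 3. Efna1, Epha4 and Efnb1 spread most in CEpiLC, where replicate 3 is above the mean for the first 2 and below it for Efnb1.

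The other 12 genes of the family set the 10 in context, and 11 of them were tested, Epha6 having too few counts. Between CEpiLC and EpiLC, 5 were higher and 3 lower, and between SOX2-ON and SOX2-OFF 3 were higher and 2 lower. That is 72.7% and 45.5% of the 11, where 42.2% and 28.8% of all genes were called. Epha5 was at 20, 13 and 13 counts in EpiLC and at 381, 62 and 57 in CEpiLC. The same gene was at 18, 16 and 3 counts in SOX2-OFF and at 95, 74 and 176 in SOX2-ON. Its libraries were low in both EpiLC and SOX2-OFF, and CEpiLC replicate 1 was well above the other two. The log2 fold change was 3.15 for CEpiLC against EpiLC (edgeR adjusted p = 0.000632) and 3.01 for SOX2-ON against SOX2-OFF (edgeR adjusted p = 0.00184), at a mean level of 1.81 TPM in CEpiLC. Ephb1, an EphB receptor, averaged 10.6, 3.19, 1.17 and 4.88 TPM in EpiLC, CEpiLC, SOX2-OFF and SOX2-ON. It was lower in CEpiLC (log2 fold change -1.77, edgeR adjusted p = 9.33e-05) and higher in SOX2-ON than in SOX2-OFF (2.00, edgeR adjusted p = 0.000173).

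The ligand gene Efna3 averaged 5.24, 15.3, 45.6 and 20.8 TPM in the same order of groups. It was higher in CEpiLC than in EpiLC (log2 fold change 1.52, edgeR adjusted p = 0.000513) and higher again in SOX2-OFF (1.63 against CEpiLC, edgeR adjusted p = 7.37e-05). Efna1, Efna3 and Efna4 lie next to each other on chromosome 3, from 89271730 to 89338028 in GRCm38.p6, and all 3 were called higher in CEpiLC, Efna4 by 0.70 (edgeR adjusted p = 0.00258). In SOX2-OFF against CEpiLC, Efna3 and Efna4 were called higher while Efna1 was not called. Ephb4, a receptor of venous endothelium and a partner of ephrin-B2, averaged 43.9, 63.0, 57.5 and 42.1 TPM. It was higher in CEpiLC by 0.52 (edgeR adjusted p = 0.000643) and its log2 fold change in SOX2-ON against SOX2-OFF was -0.50 (edgeR adjusted p = 0.00139). Epha8 and Epha10 were lower in CEpiLC (log2 fold changes -1.51 and -1.37) and stayed at or under 2.96 TPM on average in all groups, and Ephb6 was higher by 0.78. Epha3, Efna2 and Efnb3 were not called in that comparison.

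Summed over the 22 genes, transcripts of the family came to 256 ± 18.8 TPM for EpiLC and 447 ± 25.5 for CEpiLC, and to 529 ± 22.4 for SOX2-OFF and 435 ± 24.6 for SOX2-ON (SD, n = 3 each). Wild-type and SOX2 TetON sums are not on 1 footing, because 4 of the genes lie on chromosomes with a line shift, Epha1 and Ephb6 on chromosome 6 and Efnb2 on chromosome 8 upward and Efnb3 on chromosome 11 downward. Over the 18 genes on other chromosomes, a sum added after the data were seen, the family came to 159 ± 15.6 TPM for EpiLC, 298 ± 24.8 for CEpiLC, 321 ± 20.4 for SOX2-OFF and 262 ± 22.1 for SOX2-ON, and the SOX2-OFF and CEpiLC libraries overlapped. Sums over all 22 genes are therefore set side by side here within a line only. Receptors were most of the sum in each group, at 1.93 ± 0.178 times the ligand sum for EpiLC and 2.34 ± 0.0919 for CEpiLC, and at 2.59 ± 0.248 for SOX2-OFF and 2.15 ± 0.150 for SOX2-ON. Ephrin-B ligands made up 14.3% ± 1.04 of the family sum for EpiLC and 12.1% ± 4.09 for CEpiLC, and 5.94% ± 0.464 for SOX2-OFF and 11.4% ± 1.92 for SOX2-ON. Their lowest share in SOX2-ON, 9.42%, was above the highest in SOX2-OFF, 6.38%. Epha1 alone was 34.7% of receptor transcripts for EpiLC and 36.8% for CEpiLC, and 46.3% for SOX2-OFF and 44.2% for SOX2-ON, on a chromosome whose genes read higher in SOX2 TetON.

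**Figure D5:**
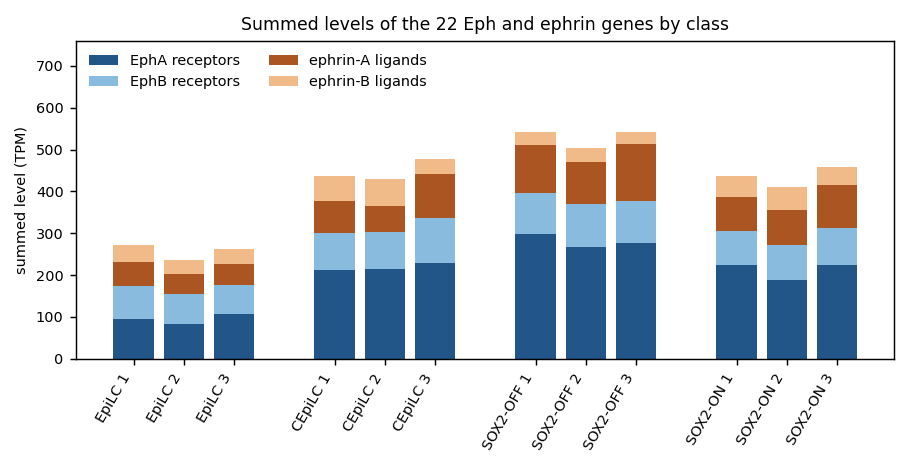
Summed TPM of EphA receptors, EphB receptors, ephrin-A ligands and ephrin-B ligands over the 22 family genes (vertical axis, from 0), stacked in 1 bar for each of the 12 libraries. EphA receptors hold the largest of the 4 sums in every library, and average 94.9 TPM for EpiLC and 218 for CEpiLC.

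Of 29 genes for proteins that act with Eph receptors and ephrins, 8 were higher and 8 lower in CEpiLC than in EpiLC, and 9 were higher and 5 lower in SOX2-ON than in SOX2-OFF, which is 55.2% and 48.3% of them, where 42.2% and 28.8% of all genes were called. Their median absolute log2 fold change was 0.28 in the first and 0.27 in the second, against 0.26 and 0.21 over all genes. In CEpiLC, Ptpn13, a phosphatase that binds the tail of ephrin-B proteins, was lower (log2 fold change -2.23, edgeR adjusted p = 2.72e-09). Chn2, a Rac regulator of the chimaerin family, was higher by 1.34 (edgeR adjusted p = 0.000283), and Adam10, the protease that cuts ephrins from the cell surface, by 1.098 (edgeR adjusted p = 5.58e-07). In SOX2-ON against SOX2-OFF, Ptpn13 was higher by 1.03 (edgeR adjusted p = 6.05e-06) and Vav3 by 1.11 (edgeR adjusted p = 0.000179). Ptpro, a phosphatase that acts on Eph receptors, was at 10, 14 and 12 counts in SOX2-ON and at 0, 2 and 1 in SOX2-OFF (edgeR adjusted p = 0.00176), too few for a fold.

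Over the 12 libraries, which fall into 4 groups, the genes with patterns closest to the 4 members of widest range were sought among 10871 genes by the correlation of log2 CPM, given here as a description. Cdx1, Sp5 and Fst were closest to Epha2, with r of 0.99 each. For Efnb1 they were Rps6ka3, Gbx2 and Rbbp7, with r of 0.98, 0.97 and 0.95, and for Efna1 they were Camkk2, Tmem120a and Cldnd1, with r of 0.97, 0.96 and 0.95. Ephb3 was closest to Lamp1, Gtf2h1 and Dram1, with r of 0.997, 0.996 and 0.992, and Lamp1 lies on chromosome 8, which carries the line shift. Rps6ka3 and Rbbp7 are X-linked, as is Efnb1. The 12 points share their groups, so libraries of a group are not separate evidence for such a likeness.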

How the data were processed

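Strand-specific, single-end reads of 76 bp from polyadenylated RNA were trimmed by the authors with cutadapt (1.16), aligned to mm10 with STAR (2.5.2a) and quantified over RefSeq genes with RSEM (1.3.0), per the study's methods and the submitters' processing notes. The deposited table gives expected counts, which are RSEM estimates and not always whole, and the TPM values that the authors' RSEM run scaled by transcript length. The former were rounded and tested here, and TPM served for levels.

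Groups were compared in 6 pairs with edgeR's quasi-likelihood fit (edgeR 4.0.16, R 4.3.3), using TMM, filterByExpr and a single model of the 12 libraries. Adjusted p is by Benjamini-Hochberg over 14196 genes, with calls at 0.05 or less. The study's own tool, DESeq2 (1.16.1 there, 1.42.0 here), and limma-voom (limma 3.58.1) served as alternatives. SEs come from the F statistic. The edgeR, DESeq2 and limma-voom fits were tested on counts simulated for CEpiLC against EpiLC. Library totals of 10408252 to 27337740 counts set the counting error, and there were no molecular identifiers.

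The 10 genes, the family and partner lists and the tests were chosen with earlier results of these data known. All family genes were named, with at most 3 called partners of largest absolute change in each of 2 comparisons, and for the 4 members of widest range the 3 genes of highest correlation among genes averaging at least 2 log2 CPM. Libraries of the same replicate number deviated together over 10872 genes: r was 0.17, 0.22 and 0.12 for EpiLC with CEpiLC, 0.11, 0.28 and 0.31 for CEpiLC with SOX2-OFF, and 0.17, 0.32 and 0.22 for CEpiLC with SOX2-ON. These numbers were treated as pairing on the values' evidence only, and entered the replicate block, an alternative fit. The main edgeR fit did not use them. Elsewhere some r was under 0.1, and the numbers were not treated as pairing. No r between libraries of different replicate number was set beside these values, so whether the numbers pair there was not settled. Replicates differed beyond sampling noise (chi-square per degree of freedom 7.73 to 44.4). Chromosomes came from RefSeq in GRCm38.p6 for 13872 of the tested genes, and promoter stretches for all 10 genes from RefSeq too.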

Additional observations from a re-analysis of the deposited data

How the results depend on the processing

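The alternatives were RLE scaling, library totals, no filter and a stricter filter, DESeq2, limma-voom, fits of 6 libraries, a replicate block, a threshold of 0.01, removal of chromosome medians, and omission of each library in turn. Of 900 values of single genes, 830 kept their direction and side of the threshold, 32 lost and 21 gained a call, and 17 changed sign. Leaving out 1 library gave 7 to 9 called genes of the 10 for CEpiLC against EpiLC and 3 to 4 for SOX2-OFF against CEpiLC. It gave 5 to 7 for SOX2-ON against CEpiLC and 4 to 7 for SOX2-ON against SOX2-OFF. For SOX2-ON against EpiLC it gave 6 in each case. For SOX2-OFF against EpiLC it gave 8 to 9, so that no omission kept all 10 calls. At an adjusted p of 0.01, 3 genes were called for SOX2-ON against CEpiLC and 3 for SOX2-ON against SOX2-OFF. The replicate block gave 5 calls for SOX2-OFF against CEpiLC, adding Epha7 and Ephb2. In the other comparisons whose numbers were treated as pairing it changed no call. Where they were not so treated, the block gave Efna1 an edgeR adjusted p of 0.0124 in SOX2-ON against SOX2-OFF and 0.0278 in SOX2-ON against EpiLC.

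Signs changed as follows, and the cause was not tested. For SOX2-OFF against CEpiLC, Efnb2 was -0.019 by library totals, -0.57 with chromosome medians removed, and -0.13 to 0.23 over the omissions. Over the same omissions Epha4 ran from -0.15 without CEpiLC replicate 1 to 0.75 without CEpiLC replicate 3, Efna1 from -1.0005 to 0.21, and Efna5 from -0.19 to 0.025. For SOX2-ON against CEpiLC, Epha1 was -0.41 and Efnb2 -0.083 with chromosome medians removed. For SOX2-ON against SOX2-OFF, Efna5 ran from -0.15 to 0.061. For SOX2-ON against EpiLC, Efnb2 was -0.51 with chromosome medians removed, and Epha7 was 0.015 by limma-voom, 0.0038 with the block and -0.20 to 0.30 over the omissions. With 3 libraries a group, values near the threshold are the least certain.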
